A study of Mus musculus with 8 samples.

Results

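ESCs of the reciprocal crosses were compared with each other. The contrast is between 4 of the 8 RNA-seq samples, and its members are the autosomal genes of all functions counted in them. The neural samples of the series were part of the fit, and so of its expression filter and its estimate of the spread behind each p. J/B ESCs are line JBE6, with a JF1 mother and a B6 father, in 2 samples. B/J ESCs are line BJE2, with a B6 mother and a JF1 father, also in 2 samples. Both are hybrid male embryonic stem cell lines derived from blastocysts, with no engineered allele, and were kept undifferentiated without feeder cells on gelatin, in medium holding LIF, BMP4 and an inhibitor of GSK3β. Each cross is 1 line, so the effect of the direction of the cross cannot be told apart from any other difference between these lines. No source used here says that the samples of a line were separate cultures, and p-values then measure the spread between these samples, which may be technical. Of 26263 genes in the count tables, 25003 could be placed on an autosome, and 15794 of these passed edgeR's expression filter among 16399 genes tested in all. The remaining 9209 autosomal genes had too few reads in the 8 samples to be tested.

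The cells of a reciprocal pair carry the same chromosome sets of both strains on their autosomes, and differ in which strain came through the mother. For most autosomal genes the parent that gave an allele makes no difference to its use. Imprinted genes are the exception, since DNA methylation or histone marks set in the egg or the sperm keep the copy of 1 parent silent. Where a gene is imprinted in the cells studied, J/B cells therefore read a paternally expressed gene from the B6 copy and a maternally expressed gene from the JF1 copy. In B/J cells the reverse holds. Imprinting can be limited to some tissues, and the paper reports that *Trappc9*, *Ago2* and *Chrac1* were read from both copies in these ESCs. These genes are on the list of maternally expressed genes used below, and which other listed genes were imprinted in these samples was not tested. The values given here sum both copies, as counts per 1000000 reads on genes (CPM), and do not show which copy was read.

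Between 22537138 and 28094638 reads were counted on genes in each ESC sample, so that 1 count corresponded to between 0.0356 and 0.0444 CPM. The pluripotency factor *Pou5f1* was read at 1950 and 1402 CPM in B/J samples 1 and 2 and at 1846 and 1351 CPM in J/B samples 1 and 2. *Sox2* was read at 378 and 692 CPM in B/J and 391 and 624 CPM in J/B, *Nanog* at 701 and 540 CPM against 808 and 485 CPM, and *Esrrb* at 982 and 505 CPM against 857 and 432 CPM. These defining markers of ESCs were thus present in every sample, and their values in the 2 lines overlapped. Across autosomal genes, which are not independent replicates, log2 values correlated at 0.986 between the B/J samples and at 0.971 between the J/B samples. Between the lines, samples of the same number correlated at 0.986 (number 1) and 0.995 (number 2), and those of different numbers at 0.972 and 0.984. Samples of a line were thus no more alike than samples of the same number from different lines. In addition, counting error alone did not account for the spread within a line (chi-square per degree of freedom, 61.2 in B/J and 86.4 in J/B).

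Of the 12 genes named higher in J/B, 5 were on the lists of imprinted genes, as were 69 of the 15794 autosomal genes tested. Sequences from the domains of *Mirg*, *Dlk1*, *Peg3* and *Usp29* are shown first, and none for the other, *H19*. *Mirg*, the single autosomal gene called by any test between the ESC lines, is a non-coding host transcript in the imprinted *Dlk1-Meg3* domain, on the plus strand of chr12:109696198-109715898 (GRCm39). Inside it lie 14 microRNA genes, which RefSeq lists with 26 mature microRNAs and 25 different seeds, the bases that pair with a target. Given here are the 2 mature microRNAs that share a seed and 4 others from different places along *Mirg*, with the seed (bases 2 to 8) in capitals. The mRNA libraries did not measure the mature microRNAs themselves.
mmu-miR-453: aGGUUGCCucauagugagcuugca
mmu-miR-496a-5p: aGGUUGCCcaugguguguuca
mmu-miR-382-5p: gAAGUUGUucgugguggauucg
mmu-miR-134-5p: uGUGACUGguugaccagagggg
mmu-miR-377-3p: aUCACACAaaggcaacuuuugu
mmu-miR-410-3p: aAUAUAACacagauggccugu

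*Peg3* and *Usp29*, both higher in J/B, are neighbours on chromosome 7 that are transcribed away from each other from nearby starts. The stretch between these starts is shown because both genes are read from it, and the 250 bases before the start of *Meg3* because *Meg3* heads the transcripts of its domain on the maternal chromosome. Capitals mark CG dinucleotides, the positions that carry DNA methylation. Both are RefSeq sequences of GRCm38.p6 on the plus strand, chr7:6730420-6730582 and chr12:109540746-109540995.
Peg3-Usp29: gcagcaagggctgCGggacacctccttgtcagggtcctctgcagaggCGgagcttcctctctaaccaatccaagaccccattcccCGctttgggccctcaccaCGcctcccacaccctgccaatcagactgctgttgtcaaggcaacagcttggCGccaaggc
Meg3: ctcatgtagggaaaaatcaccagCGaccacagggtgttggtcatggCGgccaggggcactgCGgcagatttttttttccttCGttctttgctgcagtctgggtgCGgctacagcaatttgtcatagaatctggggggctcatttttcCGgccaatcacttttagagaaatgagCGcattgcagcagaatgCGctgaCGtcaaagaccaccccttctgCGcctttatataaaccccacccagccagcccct

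These stretches hold 5 and 10 CG dinucleotides. In windows of 300 bases around the start, *Usp29* has 17, *Peg3* 13 and *Meg3* 13, where the median of 32851 RefSeq promoters is 7. At least 17 are found in 31.4% and at least 13 in 37.9% of these promoters, so none of the 3 stands apart in this count. Whether these sites were methylated in these samples was not measured.

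Few genes were called between the lines. With TMM-normalized counts and edgeR's quasi-likelihood test, 0 of 16399 genes (0%) reached an adjusted p below 0.05, and 346 had an unadjusted p below 0.05. DESeq2 called 10 genes (0.061%), of which 8 lie on the X chromosome, 1 on the Y chromosome and 1, *Mirg*, on an autosome, and limma-voom called 0. The adjusted p of every autosomal gene in edgeR was 1, so none is called by that test, and single genes are given with their log2 fold change and its standard error (SE) from edgeR. The median log2 fold change of J/B over B/J was 0.00 over the autosomal genes, and the median of its absolute size was 0.183. An unadjusted p below 0.05 was found for 244 autosomal genes higher in J/B (1.54%) and 37 lower (0.234%). With only the 4 ESC samples in the fit, 79 were higher and 23 lower, of 13307 autosomal genes tested. Of the 281 genes in the fit of all 8 samples, 130 had a mean below 1 CPM. These counts depended on single samples, and were 125 and 45 without B/J sample 1, 297 and 39 without B/J sample 2, 135 and 62 without J/B sample 1, and 837 and 364 without J/B sample 2.

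Without any model, both J/B samples lay above both B/J samples for 1753 autosomal genes (11.1%), and below both for 1726 (10.9%). On library totals without TMM factors the numbers were 2203 and 1256, so the balance of the directions depended on the scaling. These shares are the background for the gene groups that follow, in which "higher" and "lower" mean that the samples of the lines did not overlap. Overlap was judged after TMM factors, whereas the CPM printed use library totals, so genes near the border such as *Rpl14*, *Dnajb1*, *Col1a2* and *Col4a1* can seem ordered otherwise. On single autosomes, the median log2 fold change lay between -0.025 (chromosome 8) and 0.041 (chromosome 18), the share of genes higher in J/B between 9.3% (chromosome 6) and 13.9% (chromosome 13), and the share lower between 6.6% (chromosome 18) and 15.7% (chromosome 8).

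**Figure D1:**
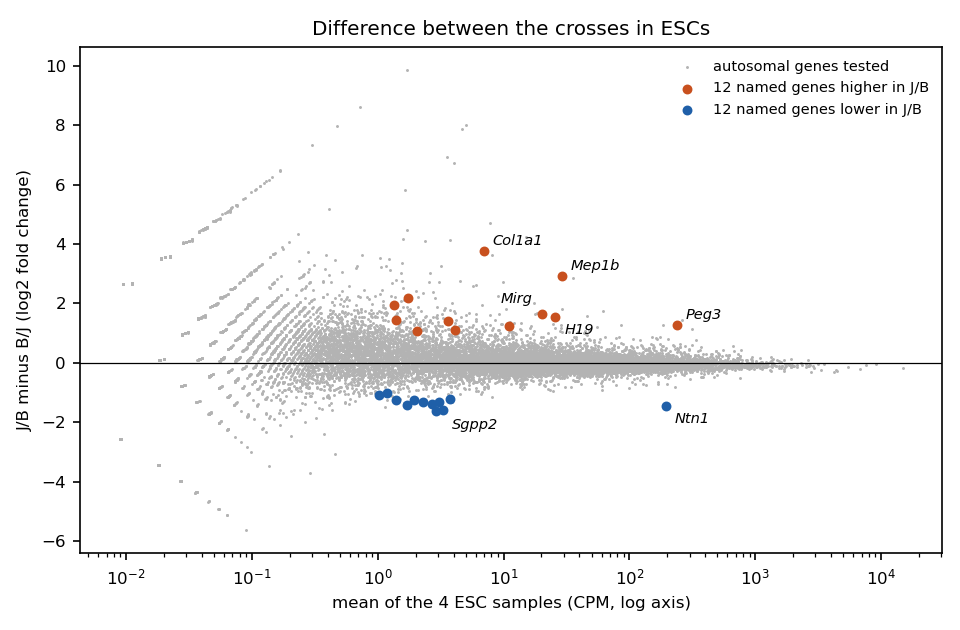
Difference between J/B and B/J ESCs (vertical axis, log2 fold change) against the mean of the 4 ESC samples (horizontal axis, CPM on a log scale) for 15794 autosomal genes in grey, with the 12 named genes higher in J/B in orange and the 12 lower in J/B in blue. Most genes lie near 0, with a median of 0.00, and the wide fans at the left are genes of a few reads.

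By the rule for naming genes, the 12 autosomal genes with the lowest p were named in each direction among those with a mean of at least 1 CPM, at least a 2-fold difference and no overlap. Of the 12 higher in J/B, 5 are imprinted genes, *Mirg*, *Dlk1*, *Peg3*, *Usp29* and *H19*, and of the 12 lower in J/B 0 are imprinted. Among all 15794 autosomal genes tested, 69 are on the imprinted lists. *Mirg* and *Dlk1* share a domain, as do *Peg3* and *Usp29*, so the 5 are not independent. The 12 were picked by their p in these same samples, so these counts are a description. Over the lists of imprinted genes, 33 paternally expressed genes were tested, of which 10 were higher in J/B, 0 lower, and 6 had an unadjusted p below 0.05, all higher. Their median log2 fold change was 0.31, beside 0.00 for all autosomal genes. Of 36 maternally expressed genes, 7 were higher and 6 lower, 5 had an unadjusted p below 0.05, all higher, and the median was 0.06. With genes at 0 counts in a line set to their bound of 3 counts the medians were 0.30 and 0.06. Without J/B sample 1 they were 0.28 and 0.15, and without J/B sample 2 they were 0.12 and -0.08.

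The *Dlk1-Meg3* domain is a cluster on chromosome 12 whose maternal chromosome makes long non-coding RNAs and whose paternal chromosome makes proteins of growth and placental development. *Mirg* was read at 9.61 and 9.48 CPM in B/J and 23.3 and 39.0 CPM in J/B. Every J/B value was more than 2 times every B/J value, with a log2 fold change of 1.66 (SE 0.3), which is 3.16-fold. DESeq2 called it with an adjusted p of 0.00165, while its adjusted p ranged from 0.00165 to 1 across the alternatives tried, and its log2 fold change between 1.28 and 1.95. *Rian*, the host of small nucleolar RNAs upstream of *Mirg*, was read at 150 and 231 CPM in B/J and 270 and 611 CPM in J/B (log2 fold change 1.16, SE 0.369). *Meg3*, the first transcript of this series, was read at 119 and 154 CPM in B/J and 168 and 611 CPM in J/B (log2 fold change 1.45, SE 0.614). J/B sample 2 held most of this difference, and the log2 fold change of *Meg3* was 0.29 without it. The paternally expressed *Dlk1*, which codes for a transmembrane ligand related to those of Notch, was low in all samples, at 1.35 and 2.55 CPM in B/J and 4.75 and 5.92 CPM in J/B, again without overlap (log2 fold change 1.42, SE 0.384). Transcripts of both parental origins in this domain were thus higher in J/B, with *Dlk1* on the paternal side. *Dio3*, also paternally expressed in this domain and named after its value was seen, had a log2 fold change of -0.15. The paternally expressed *Rtl1*, a gene of retrotransposon origin, had 0 counts in B/J and 1 and 3 counts in J/B, too few for a fold. Its neighbour *Begain*, named after its values were seen, was read at 0.89 and 0.985 CPM in B/J and 1.06 and 2.34 CPM in J/B (log2 fold change 0.82, SE 0.565).

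The *Peg3* domain on chromosome 7 is controlled by methylation of the maternal copy of the *Peg3* promoter. *Peg3*, a zinc finger protein of the paternal chromosome, was read at 129.9 and 145.7 CPM in B/J and 233.9 and 453.0 CPM in J/B (log2 fold change 1.27, SE 0.283), a 2.41-fold difference. *Usp29*, a ubiquitin protease gene that starts from the same stretch in the other direction, was read at 5.8 and 7.11 CPM in B/J and 16.2 and 15.3 CPM in J/B (log2 fold change 1.25, SE 0.288). For both neighbours the samples were well apart, and their fold changes, 2.41 and 2.38, were alike. Under the alternatives the log2 fold change lay between 0.76 and 1.63 for *Peg3* and between 1.13 and 1.36 for *Usp29*, and the lowest adjusted p was 0.0846 and 0.132, in DESeq2.

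In the cluster at the other end of chromosome 7, *H19*, a maternally expressed non-coding RNA, was read at 7.65 and 18.1 CPM in B/J and 36.7 and 39.3 CPM in J/B (log2 fold change 1.54, SE 0.453). *Igf2*, the paternally expressed growth factor gene that shares its enhancers with *H19*, was named after its values were seen and was read at 8.47 and 20.9 CPM in B/J and 8.34 and 13.5 CPM in J/B, with overlap (log2 fold change -0.46, SE 0.414). *Kcnq1ot1*, the paternally expressed non-coding RNA that silences the neighbouring domain, was read at 3.63 and 5.11 CPM in B/J and 7.37 and 8.53 CPM in J/B (log2 fold change 0.83, SE 0.336). Of the genes under its control, named after their values were seen, *Phlda2*, a brake on placental growth, was lower in J/B, at 24.9 and 37.8 CPM against 15.2 and 23.2 CPM (log2 fold change -0.75, SE 0.377). *Cdkn1c*, an inhibitor of the cell cycle, overlapped between the lines at 9.65 and 26.0 CPM against 9.05 and 41.6 CPM. Other listed genes of this domain had log2 fold changes on both sides of 0, from -0.41 (*Tnfrsf23*) to 0.75 (*Osbpl5*). Whether any of them followed *Kcnq1ot1* was not tested.

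*Igf2r*, the receptor that takes up IGF2 for degradation, was read at 81.5 CPM in each of the B/J samples and 134.0 and 110.9 CPM in J/B (log2 fold change 0.55, SE 0.186). *Jade1*, a subunit of a histone acetyltransferase complex, was read at 430.1 and 399.8 CPM in B/J and 589.9 and 534.2 CPM in J/B (log2 fold change 0.40, SE 0.172). Both differences were under 2-fold, and in both genes the samples of a line lay close together. Among genes chosen after their values were seen, *Zdbf2* was higher in J/B (155.0 and 136.6 CPM against 256.1 and 181.6 CPM), as was *Nap1l5* (0.249 and 0.401 CPM against 0.577 and 1.06 CPM). *Grb10*, an adaptor that restrains growth signalling, was lower (102.4 and 130.7 CPM against 88.7 and 99.2 CPM), and *Plagl1*, a zinc finger factor, overlapped (38.2 and 18.7 CPM against 80.8 and 36.9 CPM). The libraries were mapped as stranded, but the sources used here do not give the strand setting of the counting, and without it reads of *Igf2r* and *Airn*, of *Kcnq1ot1* and *Kcnq1*, and of *Rtl1* and its antisense transcript cannot be told apart.

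**Figure D2:**
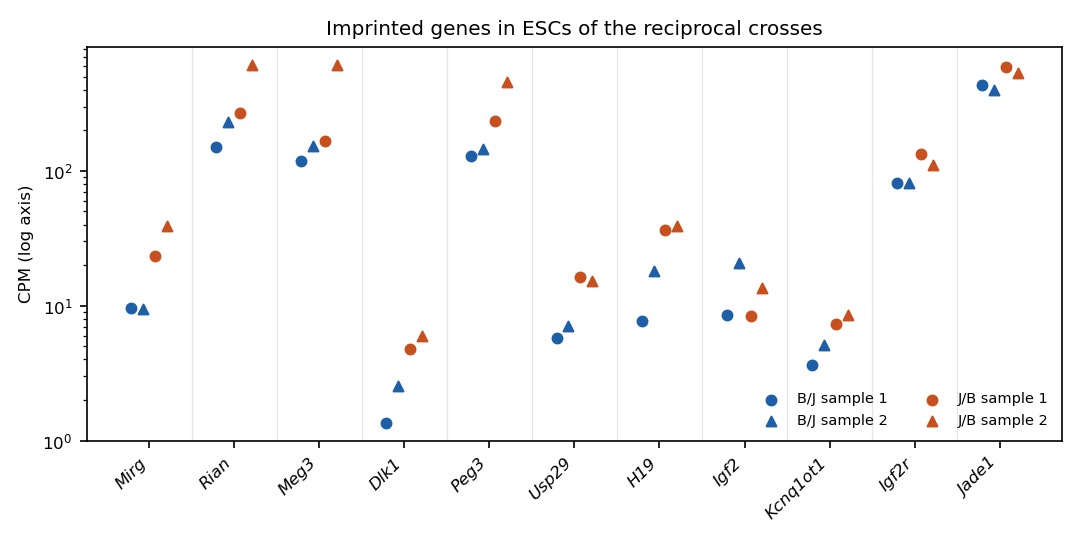
Expression of 11 imprinted genes (horizontal axis) in the 4 ESC samples (vertical axis, CPM on a log scale), with B/J in blue, J/B in orange, circles for sample 1 and triangles for sample 2. In 10 of the 11 genes both J/B points lie above both B/J points, as for Mirg at 23.3 and 39.0 CPM against 9.61 and 9.48 CPM, and in Igf2 the lines overlap. The genes were picked for display, so this count does not describe imprinted genes at large. Of all 69 imprinted genes tested, 17 were higher (24.6%) and 6 lower (8.7%), beside 11.1% and 10.9% of autosomal genes.

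In the *Peg13-Kcnk9* domain on chromosome 15, the values of the lines overlapped except at *Kcnk9*. *Peg13*, a paternally expressed non-coding RNA, had a log2 fold change of 0.28 (SE 0.552), *Trappc9*, the gene of a vesicle transport factor around it, -0.27 (SE 0.23), *Chrac1*, a histone-fold protein, -0.02 (SE 0.233) and *Ago2*, the slicer of RNA interference, 0.16 (SE 0.245). *Kcnk9*, a potassium channel, had 0 counts in B/J and 1 and 2 counts in J/B, at the limit of 3 counts that a count of 0 allows, so no fold is given.

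The other 7 genes named higher in J/B are not on the imprinted lists. *Tanc2*, a scaffold protein of synapses, was read at 2.17 and 2.95 CPM in B/J and 5.86 and 5.58 CPM in J/B (log2 fold change 1.12, SE 0.225). *Caskin1*, another synaptic scaffold, was read at 1.1 and 1.5 CPM in B/J and 3.11 and 2.53 CPM in J/B, and *Olfml3*, a secreted matrix protein, at 0.819 and 0.657 CPM against 2.31 and 1.85 CPM. *Aspa*, which cleaves N-acetylaspartate, was read at 0.57 and 0.511 CPM in B/J and 2.09 and 2.23 CPM in J/B (log2 fold change 1.95, SE 0.598). In these 4 genes the samples of each line lay close together and the lines well apart. By contrast, J/B sample 1 held most of the difference in *Mep1b*, which codes for a membrane metalloprotease, read at 8.4 and 5.11 CPM in B/J and 90.5 and 13.2 CPM in J/B. The same was the case for *Gask1b*, at 0.534 and 0.693 CPM against 4.35 and 1.32 CPM. Without J/B sample 1 the log2 fold change of *Mep1b* was 0.87 in place of 2.93.

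The genes named lower in J/B were mostly of low level. *Ntn1*, the secreted guidance factor netrin, was an exception, read at 363.9 and 202.2 CPM in B/J and 66.7 and 150.9 CPM in J/B (log2 fold change -1.44, SE 0.534). *Sgpp2*, a phosphatase of sphingosine 1-phosphate, was read at 6.26 and 3.57 CPM in B/J and 1.95 and 1.43 CPM in J/B (log2 fold change -1.58, SE 0.542). *Ndufa4l2*, a mitochondrial protein induced by low oxygen, was read at 4.02 and 4.63 CPM against 2.22 and 1.32 CPM (log2 fold change -1.32, SE 0.491), and *Atp6v0a4*, a proton pump subunit, at 2.63 and 6.09 CPM against 0.887 and 2.04 CPM. *Pglyrp1*, a peptidoglycan recognition protein, was read at 2.67 and 2.26 CPM in B/J and 0.799 and 1.09 CPM in J/B (log2 fold change -1.42, SE 0.595). *Grin1*, a glutamate receptor subunit, was read at 3.95 and 3.72 CPM against 0.621 and 2.41 CPM, and *Gnat1*, the transducin of rods, at 3.1 and 2.33 CPM against 0.887 and 1.47 CPM. The remaining 5, *Gm13420*, *BC064078*, *AA986860*, *Fam71e1* and the peroxisomal gene *Pex11g*, had log2 fold changes from -1.01 (*Pex11g*) to -1.30 (*BC064078*) at no more than 6.76 CPM (*Gm13420* in B/J sample 1).

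Naive pluripotency genes hold ESCs in the state of the early epiblast. Of 29 tested, 1 was higher and 4 lower in J/B, and the median log2 fold change was 0.03, or -0.16 without J/B sample 1 and 0.13 without J/B sample 2. The lowest p of the list were those of *Tbx3* (0.83, SE 0.544), which lay at 309.5 CPM in J/B sample 1 and between 101.8 and 130.6 CPM in the other samples, *Il6st*, the LIF co-receptor, which was lower in J/B (-0.30, SE 0.222), and *Pecam1* (0.52, SE 0.456). *Zfp42*, another naive marker, was read at 106.1 and 117.1 CPM in B/J and 94.9 and 105.9 CPM in J/B (-0.19, SE 0.282). For the formative and primed epiblast, 2 of 18 genes were higher and 0 lower, with a median of -0.07 that was 0.28 without J/B sample 1 and -0.61 without J/B sample 2. *Dnmt3a*, a DNA methyltransferase, was read at 89.1 and 127.2 CPM in B/J and 382.5 and 140.7 CPM in J/B (log2 fold change 1.26, SE 0.442, and 0.30 without J/B sample 1), *Foxd3* had a log2 fold change of 0.62 (SE 0.463) and *Nodal* 0.30 (SE 0.315). In the list of DNA methylation and imprint maintenance, 1 of 18 genes was higher and 2 were lower. The latter were *Dnmt1*, the maintenance methyltransferase, at 592.3 and 514.6 CPM against 468.0 and 484.3 CPM (log2 fold change -0.26, SE 0.181), and *Gadd45a* at 49.4 and 42.6 CPM against 22.1 and 40.3 CPM (log2 fold change -0.61, SE 0.28).

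The culture medium acts through LIF, BMP and Wnt signalling, and lists of their targets are given here with those of other signals and stresses. The range beside a list's median is that with each of the 4 ESC samples left out. Of 13 LIF and STAT3 targets, 5 were higher and 3 lower (median 0.11, 0.03 to 0.37). The survival factor *Mcl1* was read at 542.2 and 506.5 CPM against 681.2 and 627.3 CPM (log2 fold change 0.28, SE 0.164). The receptors *Il4ra* (log2 fold change 1.08, SE 0.506) and *Osmr* (1.08, SE 0.759) were higher too, *Osmr* at 2 and 3 counts in B/J and 3 and 7 counts in J/B. Of the 13 log2 fold changes 7 lay above 0 and 6 below. Those below 0, named after their values were seen, include *Junb* (-0.28), *Bcl3* (-0.24) and *Socs3* (-0.20). BMP targets were higher in 2 of 13 and lower in 0, near the background of 11.1% and 10.9% (median 0.19, -0.49 to 0.85). *Bambi*, a decoy receptor, was read at 16.0 and 14 CPM in B/J and 25.9 and 19.7 CPM in J/B (log2 fold change 0.57, SE 0.291), *Atoh8* at no more than 0.453 CPM (log2 fold change 1.94, SE 0.859), and *Smad9* overlapped (log2 fold change 1.33, SE 0.861). Of 22 Wnt targets, 4 were higher and 4 lower (median -0.10, -0.24 to 0.23), among them the Wnt inhibitor *Wif1* (-0.85, SE 0.467), *Bmp4* (-0.62, SE 0.28), *Ccnd2* (0.59, SE 0.353) and *Sox9* (1.20, SE 0.66). FGF and ERK targets were higher in 1 and lower in 1 of 18 (*Dusp5* at 0.45, SE 0.383, and *Ier3* at -0.63, SE 0.362), with a median of 0.06 (0.04 to 0.13). Immediate early genes were higher in 0 and lower in 2 of 22 (median -0.02, -0.92 to 0.67). *Egr1* was at 44.9 CPM in J/B sample 1 and between 182.1 and 226.4 CPM in the other samples (log2 fold change -0.70, SE 0.619), *Ccn2* had a log2 fold change of 0.69 (SE 0.438) and *Klf6* 0.36 (SE 0.25). Heat shock genes were higher in 1 and lower in 3 of 15 (median -0.04, -0.11 to 0.03), the 3 being *Hsp90aa1* (-0.19), *Hspa2* (-0.38) and *Dnajb1* (-0.17). At these group sizes a median or a count near the background does not show that the lines were alike.

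Several fibroblast, endoderm, 2-cell-like and germline genes were highest in J/B sample 1. In such bulk samples, fewer cells of a type and less RNA per cell cannot be told apart. Of 18 fibroblast genes, 5 were higher in J/B, 0 lower and 6 had an unadjusted p below 0.05, with a median of 1.13 that was 0.27 without J/B sample 1. *Col1a1*, a chain of type I collagen, was read at 0.498 and 1.42 CPM in B/J and 23.4 and 2.68 CPM in J/B (log2 fold change 3.76, SE 1.08), and 1.40 without J/B sample 1. *Col1a2*, its partner chain, was read at 0 and 0.146 CPM against 16.0 and 0.151 CPM, and *Col3a1* at 0 and 0.803 CPM against 13.2 and 1.06 CPM (log2 fold change 4.14, SE 1.37). *Col6a1* (0.32 and 0.073 CPM against 3.28 and 0.604 CPM, log2 fold change 3.23, SE 1.14) and *Fbn1* (2.99 and 2.52 CPM against 7.32 and 4.07 CPM, log2 fold change 1.02, SE 0.433) were higher in J/B too, and *Twist2* had 3 counts in J/B and 0 in B/J. Summed over the list, the samples had 1584 and 1476 CPM in B/J and 1867 and 1502 CPM in J/B, with 2 of the 19 genes at 0 in every ESC sample. The share of this signal in the differences of other genes was not tested.

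Endoderm genes, which mark the primitive and visceral endoderm, were higher in J/B in 5 and lower in 2 of 26 tested (median 0.44, and 0.01 without J/B sample 1). *Col4a2* was read at 3.59 and 3.98 CPM in B/J and 18.3 and 5.39 CPM in J/B (log2 fold change 1.63, SE 0.511). *Col4a1*, its partner in basement membranes, was read at 18.7 and 15.9 CPM against 59.5 and 19.6 CPM (log2 fold change 1.17, SE 0.466). The endoderm factor *Sox17* was low but apart in both J/B samples, at 0.285 and 0.474 CPM against 1.06 and 0.905 CPM (log2 fold change 1.34, SE 0.496), as was *Dab2* at 1.92 and 4.27 CPM against 8.47 and 5.28 CPM (log2 fold change 1.13, SE 0.44). *Cer1*, a secreted antagonist of Nodal and BMP, had 3 and 7 counts in B/J and 0 in J/B, at least 2.95-fold lower against 3 counts over the J/B samples. The list summed to 1560 and 1540 CPM in B/J and 1859 and 1534 CPM in J/B.

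A small set of genes of the 2-cell-like state, through which some ESCs pass in culture, was read in J/B sample 1. *Zscan4f* had 20.1 CPM there and no more than 0.0712 CPM in the other 3 samples, *Zscan4b* 18.4 CPM and no more than 0.0712 CPM, and *Tmem92* 154 counts, with 0 counts in the others. Of 24 listed autosomal genes only 5 passed the filter, and without J/B sample 1 the log2 fold change of *Zscan4f* was -0.02. The *Zscan4* copies are nearly identical, so the assignment of reads among them is uncertain. Germline genes that ESCs silence by promoter methylation were higher in J/B in 7 and lower in 1 of 29. Of their log2 fold changes 28 of 29 lay above 0, beside 7991 of the 15794 autosomal genes. The median was 0.65, and 0.06 without J/B sample 1. *Sycp1*, a protein of meiotic chromosomes, was read at 1.74 and 1.68 CPM in B/J and 6.48 and 3.39 CPM in J/B (log2 fold change 1.5, SE 0.567). *Brdt*, a testis bromodomain protein, was read at 0.712 and 0.474 CPM against 4.79 and 0.49 CPM (log2 fold change 2.13, SE 0.95), and *Rpl10l* at 43.7 and 22.2 CPM against 118.6 and 38.1 CPM (log2 fold change 1.23, SE 0.621), both with overlap.

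Lists of later lineages shared no direction. Of 24 genes of the primitive streak and mesoderm, 1 was higher and 3 were lower (median -0.29, -0.89 to 0.96), including *Bmp4* at 95.6 and 83.0 CPM against 62.0 and 57.3 CPM and *Tbx6* (-0.93, SE 0.578). *Mesp1* had 1 and 44 counts in B/J and 0 and 5 counts in J/B. Of 23 neural genes, 5 were higher and 2 lower (median -0.03, -0.95 to 0.19). *Ncam1*, a cell adhesion molecule, was read at 38.5 and 19.7 CPM in B/J and 14.9 and 17.7 CPM in J/B (log2 fold change -0.89, SE 0.344), and *Pax3* at no more than 0.488 CPM (log2 fold change 1.71, SE 0.855). Of 19 trophoblast genes, 5 had 0 counts in every ESC sample, as had 375 of the 15794 autosomal genes tested. Such genes passed the filter through the neural samples and could be neither higher nor lower here. Of the 19, 0 were higher and 1 was lower. Their median was -0.08, or -0.24 with genes at 0 counts in a line at their bound, and -0.98 to 0.18 with samples left out. The 1 lower, *Elf5*, had 4 and 1 counts in B/J and 0 in J/B, too few for a fold. The keratins *Krt8* (-0.67, SE 0.807) and *Krt19* (-0.85, SE 1.07) overlapped.

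**Figure D3:**
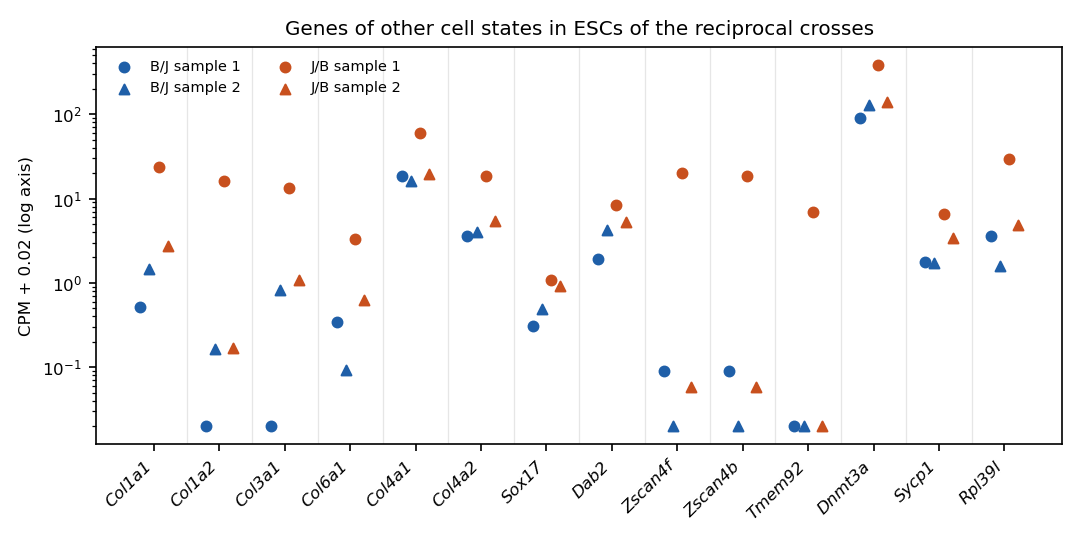
Expression of 14 genes of other cell states (horizontal axis) in the 4 ESC samples (vertical axis, CPM plus 0.02 on a log scale), with B/J in blue, J/B in orange, circles for sample 1 and triangles for sample 2. J/B sample 1 is the highest point in every gene shown, as for Zscan4f at 20.1 CPM against at most 0.0712 CPM, while Sox17 is also raised in J/B sample 2 (0.905 CPM).

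Genes of energy metabolism were more often lower than higher in J/B, by small differences. Of 35 genes of hypoxia and glycolysis, 14 were lower in J/B (40.0%) and 2 higher, beside 10.9% and 11.1% of all autosomal genes, with a median log2 fold change of -0.22. The number lower was 12 to 16 under the other scalings. *Aldoc*, an aldolase, was read at 41.8 and 35.6 CPM in B/J and 19.9 and 25.9 CPM in J/B (log2 fold change -0.80, SE 0.226). *Pfkl*, a phosphofructokinase of the committed step, was read at 441.7 and 415.6 CPM against 298.4 and 332.1 CPM (-0.48, SE 0.198), and *Tpi1*, triosephosphate isomerase, at 581.9 and 537.3 CPM against 467.2 and 402.3 CPM (-0.40, SE 0.179). Named after their values were seen, *Ldha*, lactate dehydrogenase, was read at 1420 and 1484 CPM against 1221 and 1249 CPM, and *Ndrg1*, a gene induced by low oxygen, at 32.8 and 31.0 CPM against 9.5 and 25.3 CPM. Of the 35 log2 fold changes 24 lay below 0 and 11 above. Members above 0, also named after their values were seen, include *Adm* (1.06), *Car9* (0.81), *P4ha2* (0.45) and *Vegfa* (0.28). The median was -0.30 without J/B sample 1 and -0.20 without J/B sample 2, so it did not rest on 1 of them, and it was -0.10 without B/J sample 1. *Gapdh*, also a glycolytic enzyme and a common reference, had a log2 fold change of -0.24 (SE 0.218), and the references *Gusb* and *Tbp* had 0.42 (SE 0.353) and -0.11 (SE 0.211).

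Nuclear genes of the mitochondrial respiratory chain were lower in J/B in 24 of 73 (32.9%) and higher in 0, with 20 to 28 lower under the other scalings. Of the 73 log2 fold changes 70 lay below 0, beside 7428 of the 15794 autosomal genes. Other lists leaned the same way, with 69 of 79 cytosolic ribosomal protein genes and 30 of 40 cell cycle and DNA replication genes below 0. The median of the respiratory chain genes was -0.15, and it was -0.26 without J/B sample 1 and -0.09 without B/J sample 1. The lowest p were those of *Ndufv3* of complex I (63.2 and 48.4 CPM against 45.3 and 41.4 CPM, log2 fold change -0.40, SE 0.218), *Uqcrh* of complex III (log2 fold change -0.32, SE 0.187) and *Atp5l* of the ATP synthase (137.9 and 130.6 CPM against 117.1 and 111.1 CPM, log2 fold change -0.27, SE 0.16), and 0 of the 73 had an unadjusted p below 0.05. Cytosolic ribosomal protein genes were lower in 11 of 79 (13.9%) and higher in 1, with a median of -0.10 (-0.25 without J/B sample 1 and 0.04 without J/B sample 2). *Rpl14* was lower (-0.21, SE 0.185), and *Rps27*, at no more than 4.38 CPM, overlapped. The 1 higher, *Rpl39l*, a copy of *Rpl39* used in the testis, was read at 3.59 and 1.57 CPM in B/J and 29.8 and 4.87 CPM in J/B (log2 fold change 2.73, SE 0.993), and 0.82 on the log2 scale without J/B sample 1 in place of 2.73. Many ribosomal protein genes have near-identical copies in the genome, so their counts are uncertain.

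Cell cycle and DNA replication genes were lower in 9 of 40 and higher in 2, with a median of -0.08 (-0.23 without J/B sample 1 and -0.02 without J/B sample 2). *Ccnd2*, a cyclin of G1, was read at 7.58 and 12.1 CPM in B/J and 12.4 and 17.9 CPM in J/B, the inhibitor *Cdkn2b* at 0.819 and 0.657 CPM against 1.15 and 1.58 CPM (log2 fold change 0.85, SE 0.47), and *Cdk2* overlapped (log2 fold change -0.27, SE 0.209). Of 18 replication-dependent histone genes tested, 4 were higher and 0 lower, with a median of 0.36 that was -0.01 without J/B sample 1. The named *H1f2*, *H1f5* and *H2bc6* had log2 fold changes of 0.57 (SE 0.454), 1.33 (SE 0.899) and 1.09 (SE 0.885). These transcripts lack poly(A) tails, and mRNA libraries read them poorly.

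Among stress and defence genes, p53 targets were higher in 6 of 21 and lower in 0, with a median of 0.17 (-0.07 to 0.42, the former without J/B sample 2 and the latter without J/B sample 1). *Fas*, a death receptor, had 1 and 0 counts in B/J and 3 and 4 counts in J/B, *Ddit4l* was read at 6.16 and 7.77 CPM against 12.7 and 11.5 CPM (log2 fold change 0.76, SE 0.329), and *Ei24* at 84.0 and 86.3 CPM against 153.3 and 96.0 CPM (log2 fold change 0.52, SE 0.249). The integrated stress response was higher in 5 and lower in 1 of 26 (median 0.13, 0.03 to 0.18), with the amino acid transporter *Slc7a11* (0.214 and 0.365 CPM against 0.532 and 1.36 CPM, log2 fold change 1.66, SE 0.855), *Gdf15* (log2 fold change 0.83, SE 0.491) and *Ddit3* (log2 fold change 0.56, SE 0.337). Cholesterol synthesis genes were higher in 6 and lower in 1 of 27 (median 0.08, 0.03 to 0.13). *Cyp51*, an enzyme of the pathway, was read at 114.1 and 114.4 CPM in B/J and 136.0 and 145.9 CPM in J/B (log2 fold change 0.27, SE 0.167), with the samples of each line close together.

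Interferon response genes were split, with 5 higher and 1 lower of 32 (median -0.05, -0.21 to 0.19). *Ddx58*, the gene of the viral RNA sensor RIG-I, was read at 83.7 and 73.1 CPM in B/J and 30.3 and 56.8 CPM in J/B (log2 fold change -0.90, SE 0.349). The 3 others named were near the floor. *Mx1* had 0 counts in B/J and 7 and 5 counts in J/B, at least 4.53-fold higher, *Nlrc5* was at 0.0356 and 0.109 CPM against 0.488 and 0.528 CPM (log2 fold change 2.72, SE 0.758), and *Oasl1* at 0.0356 and 0.0365 CPM against 0.355 and 0.151 CPM.

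**Figure D4:**
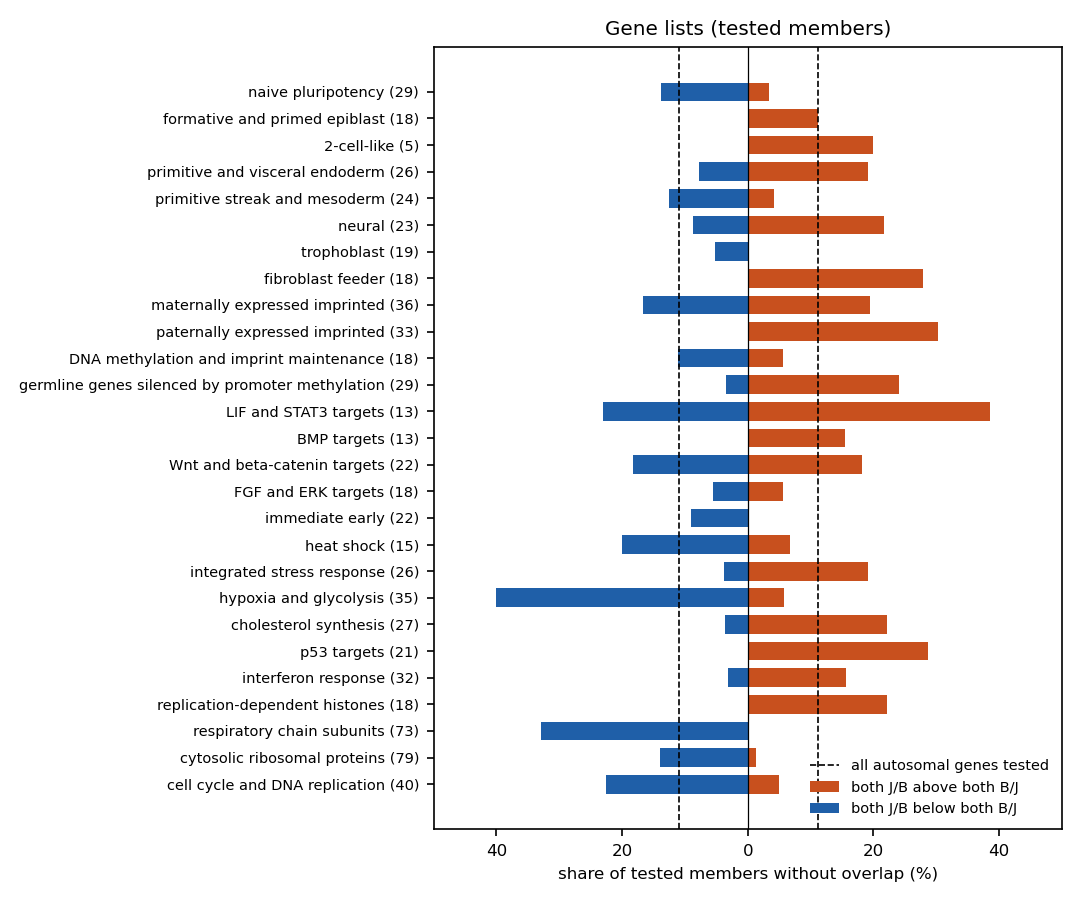
Share of the tested members of 27 gene lists (vertical axis, number tested in brackets) whose J/B samples both lay above (orange, to the right) or both below (blue, to the left) both B/J samples (horizontal axis, %). Dashed lines give the shares for all autosomal genes, 11.1% and 10.9%. On the lower side hypoxia and glycolysis (40.0%) and respiratory chain subunits (32.9%) exceed them, and on the higher side paternally expressed imprinted genes (30.3%). The 13 LIF and STAT3 targets exceed both (38.5% higher, 23.1% lower). So do Wnt targets (18.2% and 18.2%) and maternally expressed imprinted genes (19.4% and 16.7%). Other lists exceed a line too, such as p53 targets (28.6%) and fibroblast genes (27.8%) on the higher side and cell cycle genes (22.5%) on the lower.

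**Figure D5:**
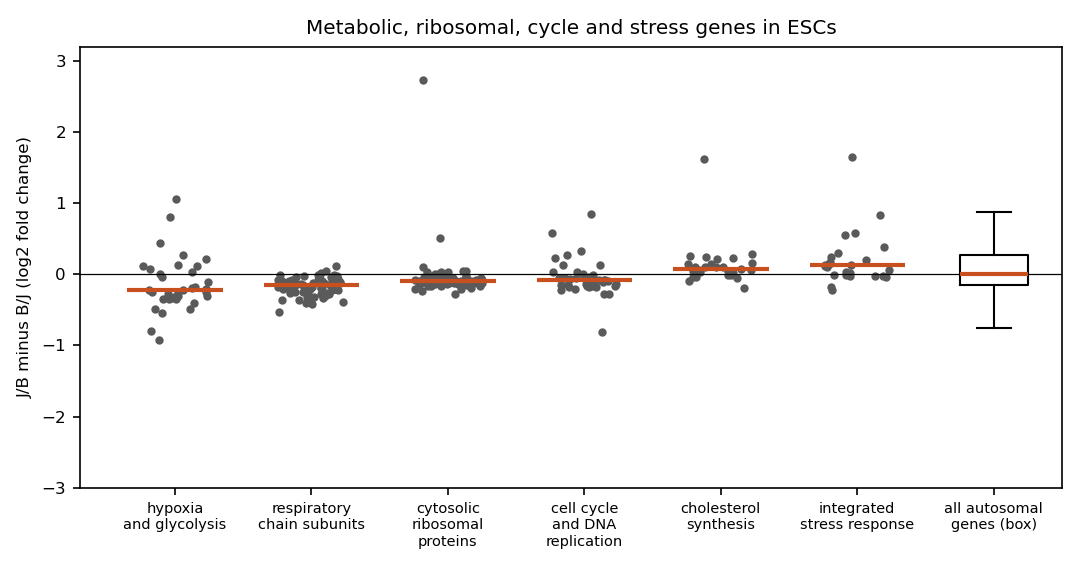
Log2 fold change of J/B over B/J ESCs (vertical axis) of each tested gene in 6 lists (grey points, spread sideways at random) with the list's median (orange line), beside a box of all autosomal genes (median, quartiles and whiskers to 1.5 times the quartile range). The respiratory chain points form a narrow band below 0, with a median of -0.15, while glycolysis points spread more widely around -0.22.

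The same lines were also sequenced as NPCs, neural precursors made from these ESCs by 12 days of *in vitro* corticogenesis, which shows how far the differences were carried on. Of the 281 autosomal genes with an unadjusted p below 0.05 in ESCs, 139 (49.5%) had the same direction in NPCs, beside 51.1% of all autosomal genes. In the average of both stages, which includes the ESC samples, edgeR called 1 gene of 16399 (0.0061%), on the X chromosome, and DESeq2 49 (0.299%), of which 30 are autosomal. *Mirg* was also higher in J/B NPCs, at 7.01 and 8.58 CPM in B/J and 14.6 and 13 CPM in J/B (log2 fold change 0.77, SE 0.296). *Usp29* did as well, at 32.9 and 36.8 CPM against 46.6 and 78.3 CPM (0.79, SE 0.28), whereas its neighbour *Peg3* overlapped at 1074 and 1081 CPM against 1052 and 1336 CPM (0.10, SE 0.278). *H19* overlapped between the NPC lines (0.11, SE 0.434), and *Dlk1* was lower in J/B NPCs (-0.62, SE 0.345). *Sgpp2* and *Ddx58* kept their direction, with log2 fold changes in NPCs of -1.25 (SE 0.519) and -1.20 (SE 0.35). *Igf2r* lay the other way, at 288.7 and 349.3 CPM in B/J NPCs and 195.3 and 211.1 CPM in J/B NPCs (-0.70, SE 0.186), and so did *Jade1*, at 164.8 and 149.6 CPM against 109.7 and 107.3 CPM (-0.59, SE 0.173). The adjusted p of these NPC differences was 0.734 or more in edgeR. Between the NPC lines edgeR called 0 autosomal genes, DESeq2 55 and limma-voom 0. For the difference between the stages edgeR called 0 autosomal genes, with 513 at an unadjusted p below 0.05 and an adjusted p of 1 for *Igf2r* and *Jade1*, while DESeq2 called 6 and limma-voom 0.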

How the data were processed

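RNA-seq of 4 ESC samples, 2 for each of lines JBE6 and BJE2, was analysed with the 4 NPC samples of the same lines as part of the fit. Paired-end reads were mapped by the authors with TopHat2 to mm39 masked at JF1 SNPs, filtered for proper pairs (mapping quality 20 or more), and deposited as raw counts per gene without normalization. The submitters' processing notes also list HTSeq, DESeq2 and edgeR, without versions. Either a TruSeq Stranded or a NEBNext Ultra II mRNA kit was used for each library, and reads were mapped as fr-firststrand. The strand setting of the counting, and which library had which kit and instrument, are not stated in these sources. The 5 closing entries for unassigned reads (reads in no gene made up 5.76% to 8.44% of all entries of an ESC sample) were left out. A count of 0 was taken to allow 3 counts, which covers counting error only. Counts in the other line were taken as read, so a fold given as "at least" leaves out their own counting error.

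Counts were fitted in edgeR 4.0.16 (R 4.3.3) as 4 group means over all 8 samples, with TMM factors, filterByExpr (minimum count 10), robust quasi-likelihood dispersions and Benjamini-Hochberg adjustment over 16399 genes at a threshold of 0.05. Alternatives used DESeq2 1.42.0, limma 3.58.1, library totals, RLE factors, reference-gene scaling (*Gapdh*, *Gusb*, *Tbp*), other filters, replicate blocks, the 4 ESC samples alone, and each sample left out. An exact two-sided permutation test of 2 samples against 2 cannot go below 0.333, so single genes were tested only in the fit. Genes were placed by GENCODE vM39 (GRCm39) or RefSeq symbols. The tests were tested on simulated counts.

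Named were the 12 autosomal genes per direction described in the report, any autosomal gene called by edgeR or DESeq2, up to 6 per direction called in the averaged contrast (0 genes), the 3 lowest p and every unadjusted p below 0.05 in each list, and a fixed set of ESC, domain and reference genes. The members, the gene lists and these rules were chosen with earlier results of these data known. Allelic expression was not analysed here, and some members of the cholesterol synthesis list that the rule names are not reported here.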

Additional observations from a re-analysis of the deposited data

Results flagged for a closer look

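For 17 of 129 named genes, every J/B sample lay on one side of every B/J sample in ESCs and on the other side in NPCs. The same was the case for 568 (3.6%) of all autosomal genes tested, while 702 (4.44%) lay on the same side in both stages. Many of the named genes were chosen for not overlapping in ESCs, so the 2 shares cannot be compared. Given for each of the 17 is the log2 difference of J/B over B/J in NPCs less that in ESCs. Higher in J/B ESCs and lower in J/B NPCs were *Dlk1* (-2.04), *Igf2r* (-1.26), *Jade1* (-0.99), *Tanc2* (-1.51), *Caskin1* (-1.43), *Mep1b* (-4.88), *Dnmt3a* (-1.58), *Twist2* (-4.48), *Mx1* (-7.34), *Nlrc5* (-3.58), *Oasl1* (-4.66), *Mcl1* (-0.42) and *Osmr* (-1.44). The fitted values of *Twist2* and *Mx1*, which had 0 counts in B/J ESCs, depend on the prior count. Lower in J/B ESCs and higher in J/B NPCs were *Gnat1* (2.80), *Grin1* (2.76), *Wif1* (2.69) and *Tbx6* (1.17). The difference between the stages was tested with edgeR's interaction term, in which the adjusted p of each of the 17 was 1. These genes were chosen for lying on opposite sides, so their differences are a description.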

How the results depend on the processing

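With 2 samples per line and 1 line per cross, the fit called few genes under any setting, and values below 1 CPM rest on few counts. In ESCs the number of genes called was 0 in edgeR as reported, 10 in DESeq2, 2 without a filter on low counts, 1 with a replicate block and only the 4 ESC samples, and 0 to 0 with each sample left out, where a group left with 1 sample was assumed to vary like the others. In the average of ESCs and NPCs it was 1, and 49 in DESeq2, 2 without the filter, 0 with a replicate block over all samples or scaled to the reference genes, and 0 to 1 with each sample left out. The deviations of samples with the same number correlated at 0.61 between the ESC lines, with only 2 pairs and no source for a pairing. A replicate block within each stage called 0 genes in ESCs, with 568 autosomal genes higher and 183 lower at an unadjusted p below 0.05. Without overlap, 1639 to 2203 autosomal genes were higher and 1256 to 1938 lower under the scalings. Medians of the lists moved by more than the spread between samples in 68 recomputations and by less in 454, and those of the autosomes, which lay between -0.088 and 0.09 throughout, in 79 and 225. Of 2531 recomputed values of 129 of the named genes, 2496 kept direction and side, 1 passed the threshold (*Mirg* in DESeq2) and 34 in 22 genes turned direction. Those outside samples left out were *Chrac1* on library totals (0.02) and *Nanog* in limma-voom (-0.02), without the filter (-0.01) and with a replicate block within each stage (-0.01). With each sample left out, the log2 fold change ranged from -0.96 to 0.28 for *Igf2*, -0.97 to 1.30 for *Cdkn1c*, -0.10 to 0.74 for *Peg13*, -0.18 to 0.13 for *Chrac1*, -0.11 to 0.37 for *Ago2*, -0.40 to 0.18 for *Pou5f1*, -0.47 to 0.34 for *Sox2*, -0.45 to 0.37 for *Nanog*, -0.88 to 0.35 for *Esrrb*, -0.16 to 1.40 for *Tbx3*, -0.28 to 1.04 for *Pecam1*, -0.02 to 11.43 for *Zscan4f*, -0.02 to 11.30 for *Zscan4b*, -0.36 to 2.99 for *Brdt*, -0.05 to 0.91 for *Rps27*, -7.80 to 1.28 for *Mesp1*, -1.49 to 1.39 for *Krt8*, -2.36 to 2.36 for *Krt19*, -0.10 to 2.03 for *Smad9*, -2.19 to 0.01 for *Egr1*, -0.06 to 1.16 for *Ccn2* and -0.29 to 0.03 for *Tbp*. The cause was not tested.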
